A study of Homo sapiens with 6 samples.

Results

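Histone lysine methyltransferases and demethylases were examined in the triple-negative breast cancer line MDA-MB-231, in slow-cycling against rapid-cycling cells. Members were the protein-coding genes whose names begin with KDM, KMT, SETD, EZH, EHMT or SUV39H followed by a digit, or by a letter and a digit. This rule took 44 of the 58735 genes that the authors deposited, 25 methyltransferase-type and 19 demethylase-type genes, after 1 gene of chromosome Y was left out. All libraries came from wild-type (WT) cells of this single line, grown in DMEM with serum, stained with the membrane dye PKH26 and grown for a further 12 days. The slow-cycling cells (SCC, 3 libraries) were the brightest 1% by dye, and the rapid-cycling cells (RCC, 3 libraries) are given as moderate in dye by the protocol and as low in dye by the sample characteristics. The groups were therefore defined by dye retention in 1 population, and both received the same stain but were sorted through different gates.

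Methyltransferases of the SET domain type place methyl groups from S-adenosylmethionine on lysines of histone tails, and demethylases remove them. The LSD1 family (KDM1) uses a flavin, and the Jumonji (JmjC) family uses iron and 2-oxoglutarate. Methylation of histone H3 at lysine 4 and lysine 36 is associated with active genes, and that at lysine 9 and lysine 27 with silent ones, so the effect of an enzyme depends on its residue. In cancer biology EZH2 is known as the catalytic subunit of Polycomb repressive complex 2 (PRC2), KDM5B as a marker of a slow-cycling melanoma fraction, and KDM5A for drug-tolerant persister cells.

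The libraries held 17655855 to 27831824 counts. The 5 genes expected in MDA-MB-231 (VIM, CD44, AXL, EGFR, KRT18) summed to 2840 to 3040 CPM, that is counts scaled to a common library total, in SCC and 2760 to 2850 in RCC. The 5 leukocyte markers summed to 0.614 to 2.97 CPM in SCC and 0.525 to 0.783 in RCC. The 3 endothelial markers summed to 3.32 to 3.73 and 3.15 to 3.91 CPM. The 4 fibroblast markers summed to 12.0 to 16.2 CPM in SCC and 8.65 to 11.5 in RCC, mostly from COL1A1. Of the 3 receptor genes that are low in triple-negative tumours, PGR had 3 counts in RCC replicate 1 and 0 in the other libraries, and ESR1 was at 0.239 to 0.696 CPM. ERBB2 was not absent, at 71.3 to 106 CPM. SCC replicate 1 stood apart by GC content among the members too. For the 6 tested members with a GC content of at least 60% its median log2 deviation from the mean of all libraries was 0.46, against -0.20 to -0.02 in the other 5. For the 13 tested members under 45% it was -0.12, against -0.01 to 0.06.

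No member passed the test, and the differences were small. In these bulk libraries fewer cells that express a gene and less RNA per cell cannot be told apart. Of the 44 members 42 passed the filter on low counts, and edgeR's quasi-likelihood test called 0 higher and 0 lower in SCC at a Benjamini-Hochberg adjusted p under 0.05. The same fit called 2.07% of all 15881 tested genes, with 1.69% higher and 0.378% lower. Before adjustment 7 members were higher and 5 lower in SCC with p under 0.05, 28.6% of those tested, against 19.7% of all tested genes (11.4% higher and 8.27% lower). In 12 members every SCC library lay on one side of every RCC library, 6 in each direction, which is also 28.6%, against 27.8% of all tested genes (14.4% with SCC higher and 13.4% with SCC lower). The median log2 fold change of SCC over RCC was -0.002 over the members and 0.003 over all tested genes. Member values lay between -0.44 for KDM4D and 0.58 for KDM6B, with standard errors of 0.064 to 0.348. KDM4E and KDM4F were too low to test, with at most 2 counts in any library.

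The result of 0 calls depended on the fit, since 8 of 19 alternatives called at least 1 member higher and 11 called none. DESeq2 called KDM2A (adjusted p 0.0184) and KDM6B (0.0329), where it called 2.51% of all genes higher. With no filter beyond a single count per gene, edgeR called 5 members higher (KDM2A, KDM4B, KDM6B, SETD1A and SETD1B), against 2.65% of all genes. That share is over 37596 genes, of which only 15881 passed the main filter, so it is not a like background for the members. With the replicate number as a block edgeR called KDM2A, against 2.2% of all genes. With an offset for GC content it called KDM2A and KDM5B, against 3.45%. With both the offset and the block it called KDM2A, KDM5B and KDM6B higher, against 4.42%, and EZH2 and SETD6 lower, against 3.43%. Leaving out SCC replicate 1 gave KDM2A, against 3.93% of all genes. Leaving out SCC replicate 2 gave KDM2A and KDM4B, against 3.57%, and leaving out SCC replicate 3 gave KDM6B, against 1.09%. Leaving out RCC replicate 1, 2 or 3 gave 0 calls among the members, where 0.657%, 0.687% and 0.698% of all genes were called in either direction. Over the 11 alternatives without a member call, this share of all genes ran from 0.13% to 2.24%.

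**Figure D1:**
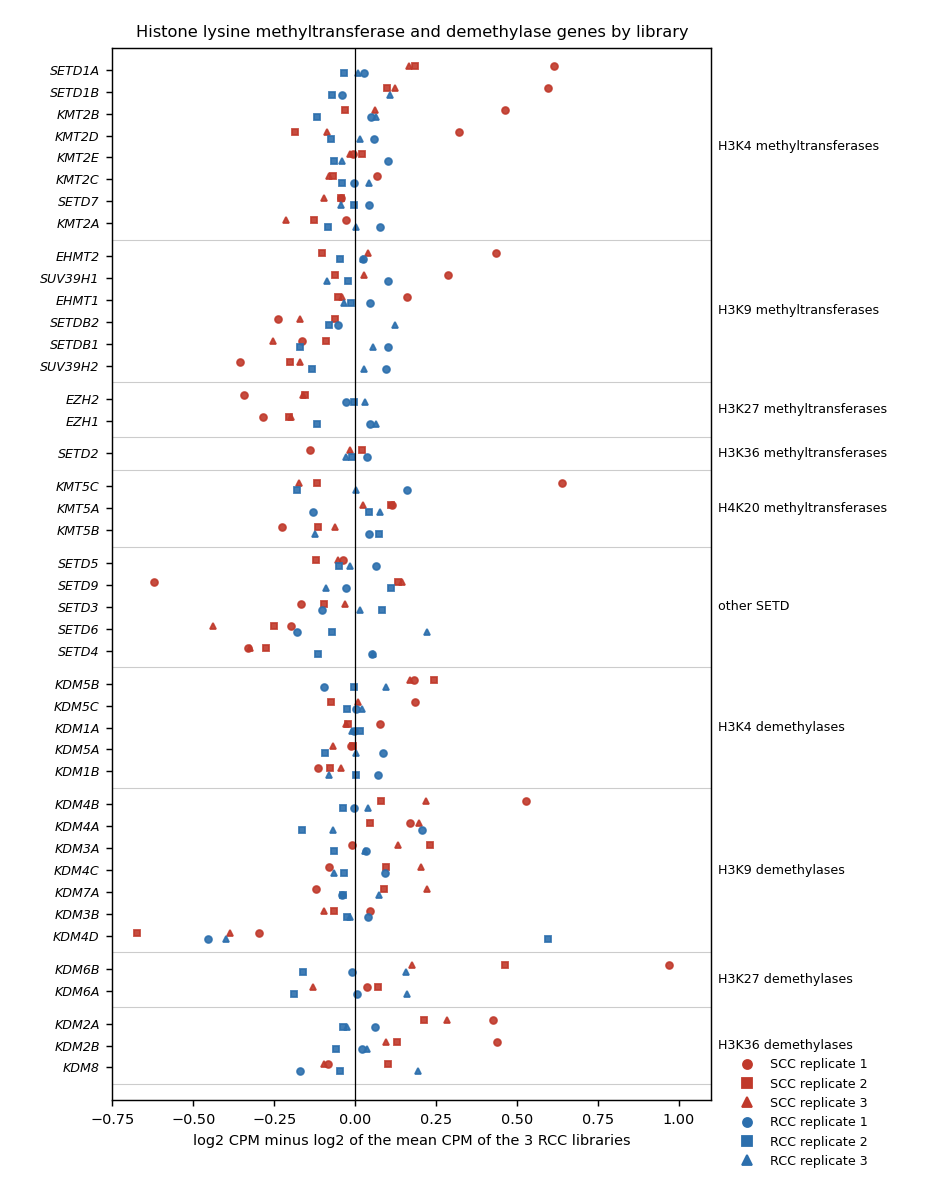
Each of the 42 tested members is a row, grouped by the residue it is known for, and each point is 1 library: log2 CPM minus the log2 of the mean of the 3 RCC libraries (red SCC, blue RCC, circle, square and triangle for replicates 1 to 3). Most points lie close to 0, and the red circles of SCC replicate 1 lie farthest right for KDM6B, KMT5C, SETD1A and SETD1B.

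To show the sequence context of KDM6B, the member with the highest fold change, of KDM2A, the one with the smallest p, and of the members that hold a site for AP-1, the transcription factor named in the series title, gene starts were taken from RefSeq (GRCh38.p14). Of the 44 members 42 had 57 windows, each running from 250 bases before to 50 after a start. The 2 stretches that follow are the 250 bases before a RefSeq start of KDM6B that lies upstream of the GENCODE gene (chr17:7833967-7834216, plus strand) and of KDM2A (chr11:67119013-67119262, plus strand), with capitals for GCGTG or its reverse complement, the core of a hypoxia response element. Each gene has a second RefSeq start, not shown, whose 250 bases hold 0 such matches (chr17:7839667-7839916 for KDM6B and chr11:67239764-67240013 for KDM2A). The stretch before the start of SETD1A, the second member by fold change, also holds 0 and lies wholly in GENCODE exons.
KDM6B: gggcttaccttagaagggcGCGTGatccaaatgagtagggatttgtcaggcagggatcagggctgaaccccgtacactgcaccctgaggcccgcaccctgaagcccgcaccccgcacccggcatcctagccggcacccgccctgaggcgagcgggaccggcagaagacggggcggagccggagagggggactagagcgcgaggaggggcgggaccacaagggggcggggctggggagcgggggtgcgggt
KDM2A: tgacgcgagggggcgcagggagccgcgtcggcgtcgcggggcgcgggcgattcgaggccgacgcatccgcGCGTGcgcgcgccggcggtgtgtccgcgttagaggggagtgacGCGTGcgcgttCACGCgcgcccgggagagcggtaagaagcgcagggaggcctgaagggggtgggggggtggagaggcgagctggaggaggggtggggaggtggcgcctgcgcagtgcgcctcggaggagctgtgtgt

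The AP-1 motif TGANTCA, searched on both strands, was found in 3 of the 57 member windows (5.26%), against 7.71% of all 35116 windows of the same length. The matches were in KDM3A (chr2:86441411-86441437), KDM4C (chr9:6757904-6757930) and KDM6A (chrX:44873068-44873094), all on the plus strand, and are shown in capitals with 10 bases on each side. In KDM4C and KDM6A the match overlaps the hypoxia core ACGTG by 2 bases.
KDM3A: ctgccgccggTGACTCAgggaggcggg
KDM4C: taagcccacgTGACTCAccaagtgcgg
KDM6A: acggctgacgTGAGTCAacaaaggtca
None of these 3 genes was called by edgeR, with log2 fold changes of 0.12 for KDM3A (adjusted p 0.418), 0.07 for KDM4C (0.759) and -0.003 for KDM6A (0.992).

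Other motifs were found in other members. The cyclic AMP response element TGACGTCA was found in 1 member window (1.75%, against 1.85% of all windows), that of SUV39H2 (chr10:14878740-14878767, plus strand). The E2F motif, searched as TTTCCCGC or TTTGGCGC, was found in 2 member windows (3.51%, against 2.27%), those of KDM1B and EZH2 (chr7:148884273-148884300, minus strand). The hypoxia core, ACGTG or GCGTG, was in 40 member windows (70.2%) and in 48.4% of all windows. A match is a description of letters and shows no binding.
SUV39H2: cggccgccagTGACGTCAggacgccgtg
EZH2: ggctgccgcgTTTGGCGCtcggtccggt

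Levels per gene length, as the deposited FPKM, spanned a wide range among the 42 tested members. The length used is that of all annotated exons of a gene, for example 25882 bases for KDM5B and 12091 for KDM5A. The order of genes and the sums below depend on it. EZH2 was the highest, at a mean of 27.7 FPKM over 6 libraries, followed by KDM1A at 21.8, SETD5 at 16.5, KMT5A at 15.4 and KDM3B at 15.3. EZH2 and KDM1A did not overlap, since the lowest EZH2 library was at 23.3 FPKM and the highest KDM1A library at 22.7. The libraries of SETD5, KMT5A and KDM3B overlapped, so their order is not resolved. The lowest members were KDM4C at 1.07, KDM7A at 0.49 and KDM4D at 0.45 FPKM, and the libraries of KDM7A and KDM4D overlapped. Summed FPKM of the 25 methyltransferase genes was 209, 193 and 195 in SCC replicates 1 to 3, and 203, 199 and 205 in RCC replicates 1 to 3. For the 19 demethylase genes the sums were 109, 101 and 101 in SCC and 99.3, 96.5 and 98 in RCC. The methyltransferase sums overlapped between groups, and the demethylase sums were higher in each SCC library than in any RCC library. These sums are descriptions and were not tested.

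**Figure D2:**
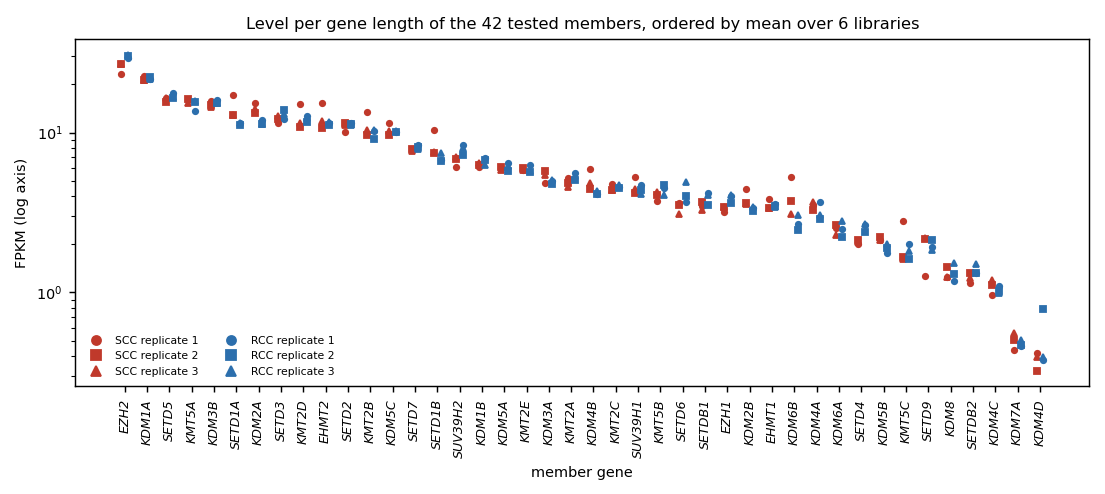
FPKM on a log axis is plotted for the 42 tested members, ordered by the mean over 6 libraries, with 1 point per library (red SCC, blue RCC, shapes for replicates). EZH2 is highest at a mean of 27.7 FPKM and KDM4D lowest at 0.45, and for most genes the 6 points lie close together.

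Both H3K27 methyltransferases were lower in every SCC library than in any RCC library, as were 13.4% of all tested genes, and neither passed the test. EZH2 (ENSG00000106462, chromosome 7, 148807383 to 148884321), the main PRC2 methyltransferase of dividing cells, was at 107, 122 and 121 CPM in SCC replicates 1 to 3 and at 133, 135 and 138 in RCC replicates 1 to 3. All SCC libraries lay below all RCC libraries, with means of 116 ± 8.4 and 135 ± 2.8 CPM (SD, n = 3). EZH2 had a log2 fold change of -0.22 (standard error 0.072, edgeR adjusted p 0.146). EZH1 (ENSG00000108799, chromosome 17, 42700275 to 42745049), the alternative catalytic subunit, was at 22.6, 23.9 and 24.0 CPM in SCC and at 28.4, 25.4 and 28.8 in RCC. Its groups did not overlap either, at a log2 fold change of -0.23 (standard error 0.090, edgeR adjusted p 0.203). With the GC offset and the replicate block together EZH2 passed the threshold (-0.16, adjusted p 0.0496).

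Of the H3K27 demethylases, KDM6A (UTX) and KDM6B (JMJD3) belong to 1 JmjC subfamily, and KDM6B is known as a gene induced by inflammatory signals. KDM6B (ENSG00000132510, chromosome 17, 7839904 to 7854796) was at 38.9, 27.4 and 22.5 CPM in SCC and at 19.7, 17.8 and 22.2 in RCC. The lowest SCC and the highest RCC library nearly met, and SCC replicate 1 was the highest. Its log2 fold change of 0.58 (1.5-fold, standard error 0.175) was the highest of the members and did not pass the threshold (edgeR adjusted p 0.121). KDM6B has a GC content of 62.5%. On the log2 scale the value was 0.33 when SCC replicate 1 was left out (adjusted p 0.0626) and 0.35 when GC content was offset (0.0740). Without SCC replicate 3 it was called, at 0.73 (adjusted p 0.0457). KDM6A was at 18.4, 18.9 and 16.4 CPM in SCC and at 18.0, 15.8 and 20.1 in RCC, with overlapping groups.

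The genes grouped here as H3K36 demethylases (KDM2A, KDM2B and KDM8) held the member with the smallest p. KDM2A (ENSG00000173120, chromosome 11, 67119269 to 67258087), a JmjC enzyme that binds CpG islands through its CXXC domain, was at 161, 139 and 146 CPM in SCC and at 125, 117 and 118 in RCC. Each SCC library was above each RCC library, at means of 149 ± 11.2 and 120 ± 4.55 CPM (SD, n = 3). The log2 fold change was 0.31 (1.24-fold, standard error 0.074), just short of the threshold (edgeR adjusted p 0.0612). KDM2A was called higher in 7 of 19 alternatives, and its adjusted p ranged from 0.000621 to 0.292. With SCC replicate 1 left out the value was 0.25 (adjusted p 0.00252), with SCC replicate 2 left out 0.34 (0.0317), under the GC offset 0.27 (0.00413) and under the block 0.31 (0.0492). Its paralog KDM2B, a subunit of a variant Polycomb complex, was at 61.7, 49.8 and 48.7 CPM in SCC and at 46.2, 43.7 and 46.8 in RCC. KDM2B had a log2 fold change of 0.23 (edgeR adjusted p 0.232), or 0.11 without SCC replicate 1. Its exons overlap those of RNF34 on the opposite strand by 439 bases. KDM8 had a log2 fold change of -0.02.

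**Figure D3:**
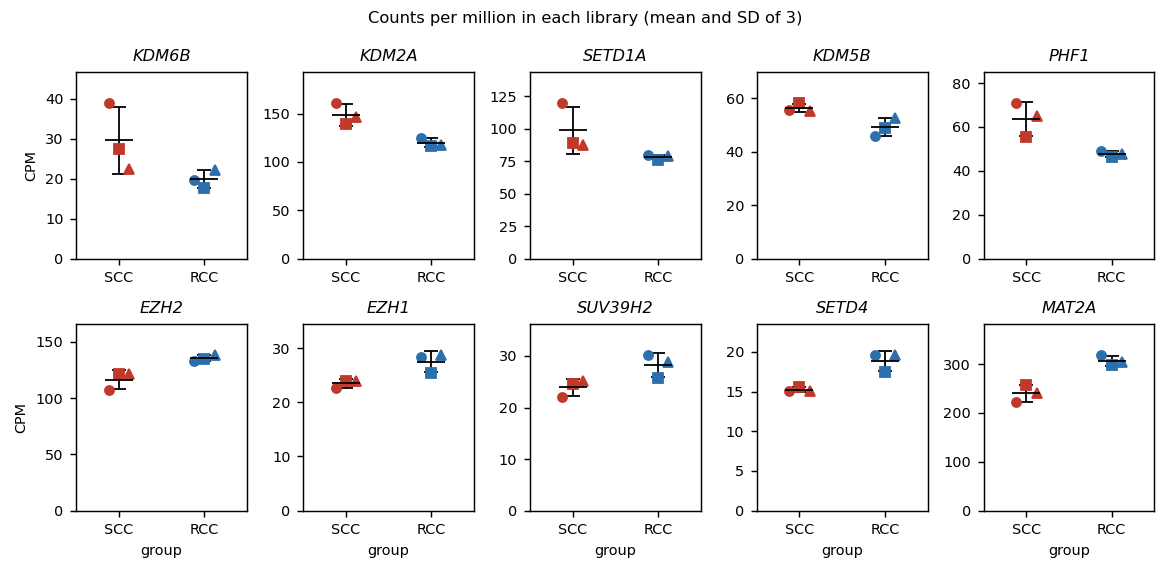
CPM in each library is shown for 8 members and for the companion genes PHF1 and MAT2A, with the mean and SD of 3 libraries as black bars (red SCC, blue RCC, shapes for replicates). The KDM6B point of SCC replicate 1, at 38.9 CPM, lies well above the other SCC points, whereas the 3 KDM5B points of SCC lie together between 55.2 and 58.1 CPM.

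Among the 8 genes grouped here as H3K4 methyltransferases, not all of which need be active on H3K4, the fold changes ran from -0.12 to 0.34. SETD1A (ENSG00000099381, chromosome 16, 30957294 to 30984664), the catalytic subunit of a COMPASS complex that methylates H3K4 at promoters, was at 120, 88.9 and 87.6 CPM in SCC and at 79.5, 76.3 and 78.6 in RCC. The groups did not overlap, and SCC replicate 1 was far above the rest. SETD1A had a log2 fold change of 0.34 (standard error 0.111, edgeR adjusted p 0.144), which came to 0.18 once SCC replicate 1 was left out and 0.11 under the GC offset. Its paralog SETD1B was at 87.6, 62.1 and 63.1 CPM in SCC and at 56.4, 55.1 and 62.4 in RCC, so the groups overlapped. The log2 fold change of SETD1B was 0.29 (edgeR adjusted p 0.230), which came to 0.11 once SCC replicate 1 was left out and 0.04 under the GC offset. SETD1A has a GC content of 62.4% and SETD1B of 63.6%.

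Several enzymes of the MLL family methylate H3K4 at promoters and enhancers. KMT2A (MLL1, ENSG00000118058, chromosome 11, 118436464 to 118526832) was at 164, 153 and 144 CPM in SCC and at 176, 158 and 168 in RCC. Its log2 fold change was -0.12 (edgeR adjusted p 0.375), and 5599 of its exonic bases are shared with AP001267.5 on the same strand. KMT2D (ENSG00000167548, chromosome 12, 49018975 to 49059774), an enhancer methyltransferase, was at 315, 222 and 237 CPM in SCC and at 262, 239 and 255 in RCC. The highest and the lowest library of KMT2D were both SCC libraries, and the groups overlapped. The fold change was 0.03 on the log2 scale (edgeR adjusted p 0.890) and changed sign without SCC replicate 1 (-0.13, adjusted p 0.108). KMT2B, KMT2C, KMT2E and SETD7 had log2 fold changes from -0.06 to 0.18. The highest of these, KMT2B, was at 0.017 with SCC replicate 1 left out and at -0.023 under the GC offset.

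Of the 5 H3K4 demethylases, KDM5B differed the most. KDM5B (ENSG00000117139, chromosome 1, 202724495 to 202809470), the JmjC demethylase also called JARID1B, was at 55.7, 58.1 and 55.2 CPM in SCC and at 45.9, 49.0 and 52.5 in RCC. All 3 SCC libraries were above all RCC libraries, at a log2 fold change of 0.20 (1.15-fold, standard error 0.078, edgeR adjusted p 0.201). Its GC content is 45%, and the value was 0.21 with SCC replicate 1 left out (adjusted p 0.0737) and 0.25 under the GC offset, where it was called (0.0346). KDM5B was called in only 2 of 19 alternatives. Over these its log2 fold change ran from 0.129 to 0.255 and its adjusted p from 0.0174 to 0.658. KDM5A (ENSG00000073614, chromosome 12, 280129 to 389454), its paralog, was at 73.7, 74.0 and 71.0 CPM in SCC and at 78.9, 69.7 and 74.6 in RCC. The KDM5A groups overlapped (log2 fold change -0.03, standard error 0.073, edgeR adjusted p 0.840). KDM1A (LSD1, ENSG00000004487, chromosome 1, 23019443 to 23083689), the flavin-dependent demethylase of the CoREST complex, had nearly level libraries, at 125, 117 and 117 CPM in SCC and 118, 120 and 118 in RCC. The fold change was 0.01 on the log2 scale (standard error 0.065, edgeR adjusted p 0.947). KDM5C (0.05) and KDM1B (-0.08) completed the group.

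The H3K9 methyltransferases split evenly, with 3 fold changes above 0 and 3 below, but the 3 above 0 (EHMT1, EHMT2 and SUV39H1) were below 0 under the GC offset and with SCC replicate 1 left out. SUV39H2 (ENSG00000152455, chromosome 10, 14878820 to 14904315), which trimethylates H3K9 in heterochromatin, was at 22.1, 24.6 and 25.1 CPM in SCC and at 30.2, 25.8 and 28.8 in RCC. The groups were separate, at a log2 fold change of -0.24 (standard error 0.097, edgeR adjusted p 0.210), or -0.11 with the GC offset at a GC content of 39.3%. Exons of SUV39H2 overlap those of DCLRE1C on the opposite strand by 159 bases. SUV39H1, its paralog, was at 18.0, 14.2 and 15.1 CPM in SCC and at 15.9, 14.6 and 13.9 in RCC, with overlapping groups. Of the 3368 exonic bases of SUV39H1, 685 overlap the antisense gene AC231533.1. SETDB1, which silences retroelements together with TRIM28, was at 24.9, 26.2 and 23.4 CPM in SCC and 30.0, 24.8 and 29 in RCC. Its log2 fold change was -0.17 (edgeR adjusted p 0.357), and 948 of its exonic bases overlap CERS2.

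EHMT2 (G9a) and EHMT1 (GLP) form the dimer that dimethylates H3K9 in euchromatin. EHMT2 was at 113, 77.8 and 85.8 CPM in SCC and at 84.9, 80.8 and 84.9 in RCC, so that only SCC replicate 1 stood out. Its log2 fold change of 0.14 (edgeR adjusted p 0.505) became -0.03 without that library. EHMT1 was at 86.9, 74.9 and 75.7 CPM in SCC and at 80.2, 77.1 and 76 in RCC (log2 fold change 0.03, adjusted p 0.872 by edgeR). Exons of EHMT2 overlap the antisense gene EHMT2-AS1 by 592 bases.

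Among the 7 tested H3K9 demethylases 5 had fold changes above 0. KDM4B, a JmjC enzyme known as a hypoxia target, was at 88.8, 65.2 and 71.7 CPM in SCC and at 61.6, 60.1 and 63.4 in RCC. The groups were separate, at a log2 fold change of 0.29 (edgeR adjusted p 0.175), which came to 0.15 once SCC replicate 1 was left out and 0.09 under the GC offset. KDM3A, another hypoxia target, was lower in SCC replicate 1 than in the other SCC libraries, at 65.8, 77.8 and 72.6 CPM against 67.8, 63.4 and 67.7 in RCC. KDM4D was the lowest by fold change, at 1.26, 0.97 and 1.19 CPM in SCC and 1.13, 2.34 and 1.17 in RCC. A single library, RCC replicate 2, set this value (-0.44, standard error 0.348, edgeR adjusted p 0.495), which was -0.013 without it. KDM4D lies beside its close relatives KDM4E and KDM4F, so the assignment of its reads is uncertain.

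The remaining SETD genes and the H3K36 and H4K20 methyltransferases followed. All 5 SETD genes known for other substrates or less studied had fold changes below 0, from -0.31 to -0.07, and 0 of them were called by edgeR. The value of SETD9 was 0.14 with SCC replicate 1 left out. SETD4 (ENSG00000185917, chromosome 21, 36034541 to 36079389), a little-studied member that has been linked to quiescent stem cells, was at 15, 15.6 and 15.1 CPM in SCC and at 19.6, 17.4 and 19.6 in RCC. Its SCC libraries were nearly level and all below RCC, at a log2 fold change of -0.31 (standard error 0.098, edgeR adjusted p 0.132). SETD6, which methylates the NF-kB subunit RELA, was at 18.7, 18.0 and 15.8 CPM in SCC and at 19.0, 20.4 and 25.0 in RCC. The SETD6 groups just missed each other (log2 fold change -0.29, edgeR adjusted p 0.232, and -0.17 with RCC replicate 3 left out), and 1086 of its exonic bases overlap CNOT1. SETD2, which places the third methyl group on H3K36, was at 104, 116 and 113 CPM in SCC and at 118, 114 and 112 in RCC (log2 fold change -0.04, adjusted p 0.746 by edgeR). The H4K20 enzymes KMT5A, KMT5B and KMT5C were at log2 fold changes of 0.08, -0.13 and 0.18. KMT5C, with the highest GC content of the members at 64.6%, was at 13.6 CPM in SCC replicate 1 and at 7.69 to 9.74 in the other libraries, and its log2 fold change was -0.15 with that library left out.

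By type of enzyme, 11 of 17 tested demethylase genes and 9 of 25 methyltransferase genes had fold changes above 0, with medians of 0.07 and -0.06. At an unadjusted p under 0.05 by edgeR 5 demethylase genes were higher and 0 lower, and 2 methyltransferase genes were higher and 5 lower, where 11.4% of all tested genes were higher and 8.27% lower. Without SCC replicate 1 the medians were 0.11 and -0.07. The difference between the types was not tested.

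Across the 42 tested members the fold change followed GC content, with a Pearson r of 0.58 and a Spearman rho of 0.56 across genes that share the same 6 libraries. Over 15874 tested genes with a known GC content the values were 0.37 and 0.48. Without SCC replicate 1 they were 0.18 and 0.16 for the members. With the GC offset they were -0.01 and -0.07, but that offset removes each library's trend with GC content, so values near 0 are built in. The part of GC content in the single fold changes was not tested.

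**Figure D4:**
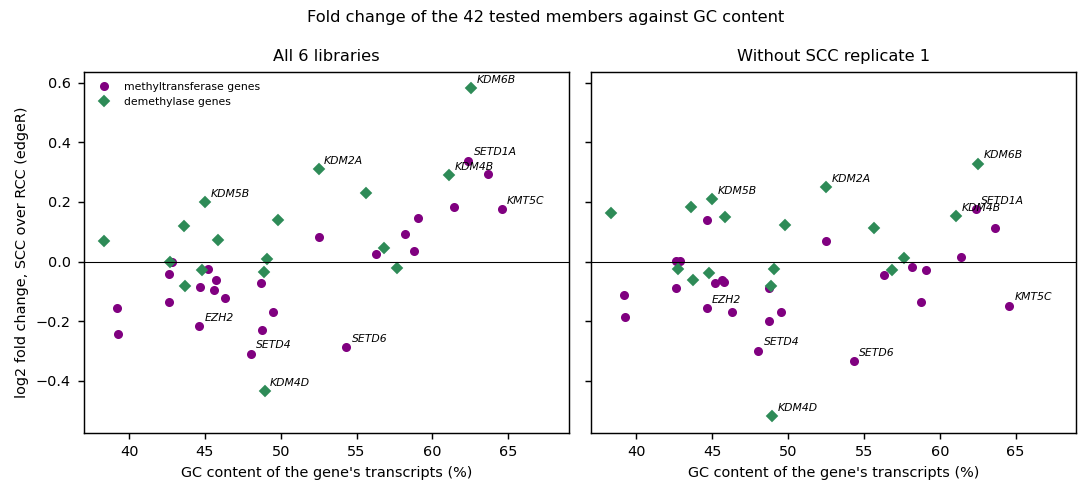
The log2 fold change of SCC over RCC is plotted against the GC content of the transcripts for the 42 tested members (circles methyltransferase, diamonds demethylase genes), with all 6 libraries on the left and without SCC replicate 1 on the right. The Pearson r is 0.58 on the left and 0.18 on the right, where KDM6B drops from 0.58 to 0.33 and KDM5B stays at 0.20 to 0.21.

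Ratios of related genes within a library cancel its depth, but not a difference in GC content between the genes. The size of an FPKM ratio also depends on the annotated exon lengths, whereas its difference between groups does not. By CPM, without length, KDM5B had a mean of 52.7 and KDM5A of 73.7 over the 6 libraries. For 8 pairs the log2 ratio of FPKM was compared between 3 and 3 libraries by an exact permutation test, two-sided, which cannot give a p below 0.1. EZH2 exceeded EZH1 7.31-, 7.87- and 7.80-fold in SCC and 7.22-, 8.23- and 7.44-fold in RCC, so the ratio overlapped between groups (difference of log2 ratios 0.007, exact p 0.9). KDM6B over KDM6A was 2.08, 1.43 and 1.35 in SCC and 1.08, 1.11 and 1.08 in RCC, with separate groups (difference 0.54, exact p 0.1, and 0.35 with SCC replicate 1 left out). KDM5B over KDM5A was 0.353, 0.367 and 0.363 in SCC and 0.272, 0.328 and 0.328 in RCC, also separate (difference 0.23, exact p 0.1, and 0.14 with RCC replicate 1 left out). SUV39H2 over SUV39H1 was 1.16, 1.64 and 1.57 in SCC and 1.80, 1.67 and 1.95 in RCC, the third separate pair (difference -0.33, exact p 0.1, and -0.17 with SCC replicate 1 left out). All 3 had a Benjamini-Hochberg adjusted p of 0.267 over the 8 exact permutation tests, and in the other 5 pairs the groups overlapped.

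**Figure D5:**
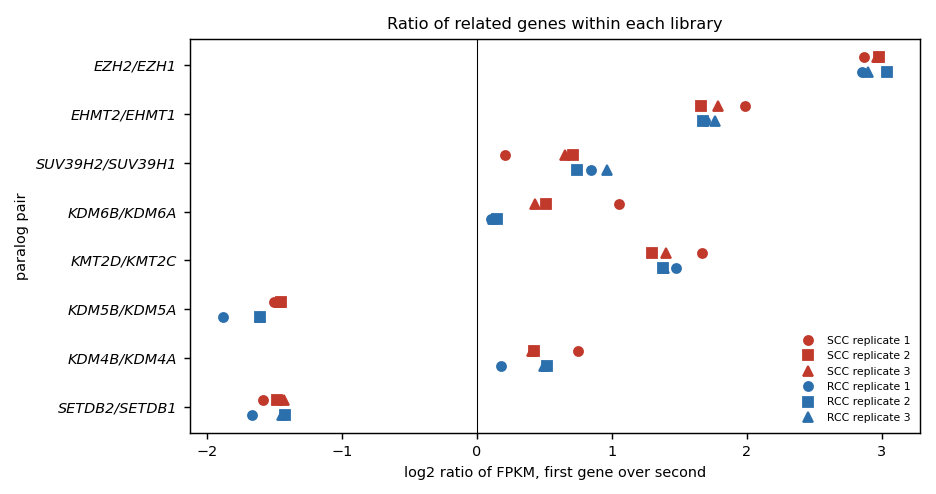
The log2 ratio of FPKM of the first gene over the second is shown for 8 pairs of related genes, with 1 point per library (red SCC, blue RCC, shapes for replicates). Red and blue points separate for KDM6B/KDM6A, KDM5B/KDM5A and SUV39H2/SUV39H1, and the KDM6B/KDM6A point of SCC replicate 1 lies farthest from its group.

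Companion genes of these enzymes formed 7 lists with 74 genes, of which 71 were tested, and 1 was called higher and 1 lower by edgeR, against 2.07% called of all genes. MAT2A (ENSG00000168906, chromosome 2, 85539165 to 85545280), which makes the methyl donor S-adenosylmethionine, was lower in SCC, at 222, 257 and 241 CPM against 319, 299 and 304 in RCC. No library overlapped, at means of 240 ± 17.2 and 307 ± 10.1 CPM (SD, n = 3). The log2 fold change of MAT2A was -0.36 (standard error 0.071, edgeR adjusted p 0.0284), and the value was -0.30 with SCC replicate 1 left out (0.000107) and -0.31 under the GC offset (0.000961). Of 19 alternatives 7 lost the call, including those that left out SCC replicate 3 (adjusted p 0.0994) or one of RCC replicates 1, 2 and 3 (0.189, 0.122 and 0.147), while the direction held in all 19. Its exons overlap those of GGCX on the opposite strand by 558 bases. MAT2B, the regulatory subunit of the same enzyme, was at 77.2, 89.5 and 92.7 CPM in SCC and 99.2, 102 and 97.8 in RCC (log2 fold change -0.21, edgeR adjusted p 0.200). With SCC replicate 1 left out MAT2B was at -0.13, and under the GC offset at -0.07.

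PHF1 (ENSG00000112511, chromosome 6, 33410399 to 33416453), an accessory subunit that guides PRC2 to chromatin, was higher in SCC, at 70.9, 55.5 and 64.9 CPM against 48.9, 46.5 and 47.6 in RCC. Its log2 fold change was 0.42 (standard error 0.093, edgeR adjusted p 0.0466), which came to 0.34 with SCC replicate 1 left out (0.00309) and 0.24 under the GC offset (0.0320) at a GC content of 60.2%. Of 19 alternatives 8 lost the call, including upper-quartile scaling (adjusted p 0.0530) and those that left out SCC replicate 3 (0.130) or one of RCC replicates 1, 2 and 3 (0.189, 0.205 and 0.192). Exons of PHF1 share 12 bases with CUTA.

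The other PRC2 partners gave 0 calls, with fold changes down to -0.17 for RBBP4 (edgeR adjusted p 0.221). In the other lists the member with the smallest p was not called. These were HR among other demethylases (log2 fold change 0.77, edgeR adjusted p 0.0673), HMG20B among LSD1-CoREST partners (0.26, 0.171, or 0.16 with SCC replicate 1 left out and -0.005 under the GC offset) and HCFC1 among COMPASS partners (0.34, 0.248). ZNF644 among H3K9 partners (-0.24, adjusted p 0.162) and ASH1L among other methyltransferases (-0.16, 0.210) completed the set by edgeR. ZNF644 was at -0.15 with SCC replicate 1 left out and at -0.09 under the GC offset, where ASH1L was at -0.10 and HR at 0.48. With SCC replicate 1 left out ASH1L was called, at -0.19 (edgeR adjusted p 0.0369), where 6.03% of all genes were called. HR was then at 0.56 (0.0607). Of the alternatives, 3 of 17 called HR, 1 of 19 called ASH1L, and 2 of 19 each called HMG20B and HCFC1. HCFC1 was at 404 CPM in SCC replicate 1 and at 238 to 271 in the other 5 libraries, and its log2 fold change was 0.085 without that library. HR was at 9.50, 5.93 and 7.16 CPM in SCC and at 4.09, 4.49 and 4.81 in RCC.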

How the data were processed

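RNA-seq libraries (3 SCC, 3 RCC) were grouped by the sample titles. The authors deposited whole-number counts and FPKM values per gene. HISAT2 2.0.5 and featureCounts 1.5.0-p3 are named in the submitters' processing notes. The build and strand setting are not given in the sources used here, and all 58735 rows matched positions of GENCODE 29 (GRCh38). Row names of 27 genes stored as dates were restored by gene ID. Without a stated strand setting, overlapping genes are uncertain.

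Counts were filtered with filterByExpr (minimum count 10), scaled by TMM and fitted on group alone with edgeR 4.0.16 in R 4.3.3. The quasi-likelihood F test was two-sided, and p-values were adjusted over all tested genes (Benjamini-Hochberg, 0.05). CPM used TMM-scaled totals, and a standard error is the log2 fold change over the square root of F. The fits were tested on simulated data. The series' design text calls the replicates biological, with no separate cultures named, so p-values measure the spread between these libraries.

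The 19 alternatives were DESeq2 1.42.0, RLE and upper-quartile scaling, 2 count filters, limma 3.58.1 on log2(FPKM + 1) with and without a filter and on log2(FPKM + 0.1), GC and length offsets (lowess span 0.3), the replicate block, and each library left out. GC content came from GENCODE transcripts weighted by length. Named members were the 4 highest and 4 lowest fold changes plus 15 fixed genes, 21 in all, and the smallest p of each companion list; KDM2B, KDM4B, KDM3A, KMT5C, MAT2B and RBBP4 were added after their values were seen. Members and lists were chosen with earlier results of these data known. The depth of 17655855 to 27831824 counts limits low genes such as KDM4D.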

Additional observations from a re-analysis of the deposited data

How the results depend on the processing

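Against 0 members called higher by edgeR, DESeq2 called 2, every gene with at least 1 count 5, the replicate block 1, the GC offset 2, and the GC offset with the replicate block 3, and 0 in the other settings with all libraries. Against 0 lower, the GC offset with the replicate block called 2 (EZH2, adjusted p 0.0496, and SETD6, 0.0284), and 0 in the others. Fits without 1 library called 0 to 2 higher and 0 lower. The median log2 fold change of the members stayed between -0.029 and 0.004. The causes were not tested. Deviations from the group means of replicates sharing a number had correlations of -0.01, 0.02 and -0.08, and not every library correlated best with its own number. Such deviations within a group of 3 are tied to each other, so these correlations do not settle whether the numbers pair libraries. The replicate block called 350 genes higher and 106 lower, against 268 and 60 without it. Pairing was not tested otherwise.

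Among the genes named by rule, signs changed for 8 members with values near 0 or up to 0.14 and for HMG20B. With the GC offset, values were -0.080 for EHMT1, -0.016 for EHMT2, 0.028 for KDM5A, 0.084 for KDM6A, -0.122 for KMT2D, 0.040 for SETD2, -0.049 for SUV39H1 and -0.005 for HMG20B, and with the block added -0.080, -0.020, 0.028, 0.085, -0.125, 0.040, -0.049 and -0.006. KDM1A was at -0.008 with upper-quartile scaling and -0.010 with the length offset, with and without the block, and KDM6A at 0.003 with no filter beyond 1 count. Without 1 library, EHMT1 ranged from -0.046 to 0.050, EHMT2 from -0.027 to 0.237, KDM1A from -0.025 to 0.018, KDM5A from -0.080 to 0.005, KDM6A from -0.093 to 0.073, KMT2D from -0.135 to 0.116, SETD2 from -0.091 to 0.003 and SUV39H1 from -0.018 to 0.149.

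Among companion genes, against 1 higher and 1 lower, DESeq2 called 2 higher, every gene with at least 1 count 4, upper-quartile scaling 0, and the 3 limma fits on FPKM 0 in each direction. The GC offset called 2 lower, alone and with the block. Fits without 1 library called 0 to 4 higher and 0 to 2 lower. In either direction the main fit called 2.07% of all genes, DESeq2 3.27% and upper-quartile scaling 2%. With every gene of at least 1 count the share was 3.48%, and in the limma fits 0.13% to 1.33%. The GC offset called 5.31%, or 7.85% with the block, and fits without 1 library 0.657% to 6.03%. Over all genes, where 268 were higher and 60 lower, higher calls ranged from 48 (limma without a filter) to 995 (every gene with at least 1 count), and lower calls from 1 to 545 (GC offset with the block).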
